A study of Rattus norvegicus with 22 samples.

Results

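The 10 genes followed here act in glucose uptake, its breakdown to lactate, lactate export, control of these steps and the response to low oxygen. They are Hif1a, Slc2a1, Hk1, Hk2, Pfkp, Pfkfb3, Pgk1, Ldha, Pdk1 and Slc16a3. They were picked by name from the gene table, with earlier results of these data known. All 10 were among its 17172 genes and among the 12875 genes that passed the filter on low counts. Counts came from whole tissue of the right hippocampus, the injured side, of 14 adult male Sprague-Dawley rats, with 1 RNA-seq library per rat. Day 1 was represented by 2 sham and 4 TBI rats, and day 14 by 4 of each kind. TBI was a single moderate lateral fluid percussion over the right hemisphere, delivered through a craniectomy. Sham rats underwent craniectomy and equally long isoflurane anesthesia but no percussion, so all 4 groups shared the surgery, and the 2 sham groups differed in the time since it. The pressure wave and the craniectomy act together in the TBI groups, and the model gives no group without surgery.

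Glycolysis splits glucose into pyruvate in the cytosol. Hexokinases trap glucose inside the cell, phosphofructokinase sets the pace of the pathway, and lactate dehydrogenase turns pyruvate into lactate, which monocarboxylate transporters carry across the membrane. When oxygen is scarce, the subunit HIF-1alpha escapes degradation and, with its partner ARNT, switches on many of these genes, so that its activity depends on the protein more than on its mRNA. In brain, Slc2a1 encodes GLUT1, the glucose transporter of the blood-brain barrier and of astrocytes, and astrocytes are known to make lactate that neurons take up.

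Total counts ranged from 15065540 to 23743703 per library, and the members were counted at between 20 (Slc16a3 in 1 sham day 1 rat) and 20837 reads. A set of 3 libraries stood apart from the rest through choroid plexus genes, whose summed level over 12 markers was 10770 CPM (counts scaled to equal library size) in sham day 1 replicate 1, 2053 in TBI day 14 replicate 2 and 8651 in TBI day 14 replicate 3, against 115 to 246 in the other 11 libraries. Results were therefore also computed without these 3. Those fits hold 1 sham day 1 rat, replicate 2, so their comparisons of TBI day 1 with sham day 1 nearly repeat those without its replicate 1. Markers of neurons, astrocytes and oligodendrocytes were high in every library, as the labelled tissue requires. Because sham day 1 held 2 rats, comparisons with it leaned on the other groups for the estimate of spread. The files give no sequencing batch, and the day of collection and any handling tied to it cannot be told apart from the time after surgery. In bulk tissue, fewer cells of a type and less RNA per cell cannot be told apart.

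Across the 4 groups the 10 genes did not move as one. Slc2a1 was higher in TBI than in sham at day 1 and Hk2 was higher in TBI than in sham at day 14, and neither comparison called a second member. Against sham day 14, which differs from TBI day 1 in both injury and day, 8 of 10 were higher in TBI day 1 (25.0% of all genes were). Between the sham groups alone, 5 of 10 stood higher at day 1 (11.3% of all genes did), and 0 without sham day 1 replicate 2. Of 21 tested other glycolytic enzymes, 3 were called higher and 5 lower in TBI day 1 than in sham day 14. Between the sham groups 1 of those enzymes was called higher at day 1 and 0 lower. Pgk1 was called in none of the 5 comparisons by edgeR. The plot of levels by group gives every rat.

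**Figure D1:**
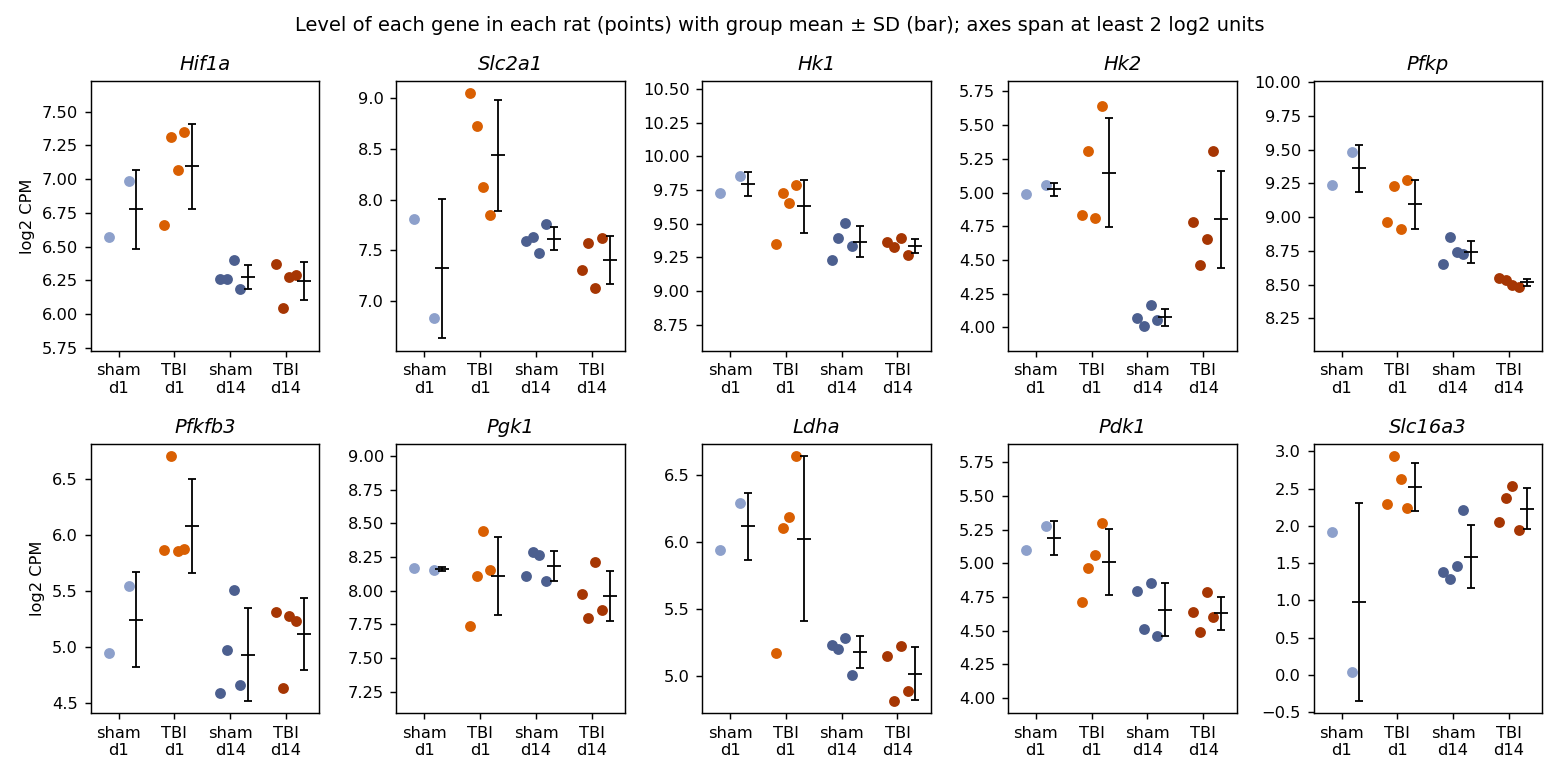
Level of each gene in each rat as log2 CPM on the y axis, by group on the x axis (2 sham day 1, 4 TBI day 1, 4 sham day 14 and 4 TBI day 14 rats). Points are rats and bars are the group mean ± SD; Hk2, for example, lies between 16.0 and 17.8 CPM in sham day 14 and at 21.9 CPM or above in the other 3 groups.

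As background to the members that did and did not move together, the 250 bases before the transcription start were read from RefSeq promoters (build GRCr8, not the build of the counts) and searched on both strands for ACGTG and GCGTG, the core letters of the hypoxia response element. Promoters were found for 9 of the 10 genes, Hk1 with 2 starts, and 7 of the 9 held a match, against 39.6% of all 27457 genes in the table. That share was not limited to the genes tested here nor matched for base content, so it is a loose yardstick. ACGTG alone was found before 16.6% and GCGTG before 25.9% of the 33469 starts. A match also arises inside the E-box CACGTG, which other factors bind and which counts on both strands. Slc2a1 held 4 matching stretches, Ldha 3, Hif1a and Pdk1 2 each, Pfkfb3 and Pfkp 1 each, and the second start of Hk1 1, while Hk2 and Slc16a3 held none in this window. The sequences of Slc2a1 (chr5:138002272-138002521, plus strand), the member called at day 1, Hk2 (chr4:116841276-116841525, minus strand), the member called at day 14, and Ldha (chr1:106507842-106508091, plus strand), which was high at day 1 in both sham and TBI, are shown 5′ to 3′ with the matches in capitals, CACGT and CACGC being the same letters read on the other strand.
Slc2a1: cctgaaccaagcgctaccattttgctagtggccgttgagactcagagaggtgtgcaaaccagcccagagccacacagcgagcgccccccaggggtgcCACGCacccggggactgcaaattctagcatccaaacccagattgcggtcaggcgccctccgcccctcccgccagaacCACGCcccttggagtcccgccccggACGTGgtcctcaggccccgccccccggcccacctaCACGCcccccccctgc
Hk2: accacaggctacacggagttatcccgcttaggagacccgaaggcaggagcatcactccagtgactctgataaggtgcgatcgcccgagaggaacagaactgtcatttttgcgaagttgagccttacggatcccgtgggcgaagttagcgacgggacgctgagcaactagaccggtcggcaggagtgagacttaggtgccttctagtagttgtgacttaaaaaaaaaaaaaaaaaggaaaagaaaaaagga
Ldha: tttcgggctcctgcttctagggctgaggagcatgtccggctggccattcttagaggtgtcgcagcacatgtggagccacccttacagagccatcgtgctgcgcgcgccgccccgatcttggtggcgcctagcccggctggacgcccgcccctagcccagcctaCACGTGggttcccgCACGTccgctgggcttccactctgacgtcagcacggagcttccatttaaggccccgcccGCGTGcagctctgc
The 2 genes called after TBI thus had 4 matching stretches and none. A match describes these letters and shows no binding.

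The first question was which members differed between TBI and sham 1 day after injury. Slc2a1 was higher in TBI, and Slc16a3 and Pfkfb3 were higher in each TBI rat than in either sham rat without passing the test. Slc2a1 stood at 224 and 114 CPM in the 2 sham rats and at 528, 423, 279 and 230.5 CPM in the 4 TBI rats. The groups did not overlap, although the lowest TBI rat exceeded the higher sham rat by little. The fitted difference was 1.11 ± 0.31 on the log2 scale (SE), a 2.16-fold higher level (edgeR quasi-likelihood test, adjusted p = 0.0233). This was 1 of 10 members called higher, against 11.2% of all genes tested, and 0 called lower, against 7.93%. The call rested on sham day 1 replicate 2: without that rat the difference was 0.70 (adjusted p = 0.285), and without the other sham day 1 rat it was 1.68 and kept its call. It was also lost when the 6 day 1 libraries were fitted alone (1.14, adjusted p = 0.162).

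Slc16a3, which encodes the lactate exporter MCT4, was the least abundant member by counts. It was counted at 3.66 and 0.922 CPM in sham day 1 and at 4.77, 7.55, 6.05 and 4.61 CPM in TBI day 1. The TBI rats all lay above both sham rats, with a difference of 1.34 ± 0.45 (SE, log2 scale) and an adjusted p of 0.0501 by edgeR. The same gene passed with limma-voom (1.67, adjusted p = 0.0199) and with DESeq2 (1.33, adjusted p = 0.0138), and its difference was 2.63 without sham day 1 replicate 1 (adjusted p = 0.00301) and 0.65 without sham day 1 replicate 2 (adjusted p = 0.42). Pfkfb3 makes fructose 2,6-bisphosphate, the activator of phosphofructokinase. Its level was 30.7 and 46.5 CPM in sham and 58.3, 104, 57.9 and 58.4 CPM in TBI. Again the groups were apart, with 1 TBI rat far above the other 3, and the difference of 0.85 ± 0.31 (SE, log2 scale) had an adjusted p of 0.0682 by edgeR and 0.0374 by DESeq2. Without that TBI rat, replicate 2, it was 0.59 (adjusted p = 0.152), and without sham day 1 replicate 1 it was 0.58 (adjusted p = 0.297). In all, 3 members had groups that did not overlap with TBI higher, against 16.7% of all genes, and 0 with TBI lower, against 14.1%.

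The other 7 members overlapped between TBI and sham at day 1. Hif1a, the oxygen-regulated subunit itself, was at 94.9 and 127 CPM in sham and at 101, 159, 134 and 163 CPM in TBI. The difference was 0.33 ± 0.18 (SE, log2 scale) with a 95% normal interval of −0.03 to 0.69. Hk1 and Hk2, the hexokinases of neurons and of insulin-sensitive and growing cells, differed by −0.16 ± 0.14 and 0.17 ± 0.24. Pfkp, the platelet-type phosphofructokinase, differed by −0.26 ± 0.14. The enzymes at the end of the pathway sat closest to 0: Pgk1, which makes the first ATP of glycolysis, differed by −0.03 ± 0.17, and Ldha, which makes lactate, by −0.01 ± 0.27 with an interval of −0.54 to 0.52. Pdk1, a kinase that inhibits pyruvate dehydrogenase, differed by −0.17 ± 0.17. The adjusted p of these 7 lay between 0.185 and 0.981. The median over all 10 members was 0.08 on the log2 scale, beside −0.02 over all genes tested. Ldha and Pgk1 have 30 and 8 numbered pseudogenes in RefSeq, and how reads shared with such copies were counted is not given in the sources used here, so their levels are less certain.

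Within the TBI day 1 group, replicate 1 differed from the other 3 rats in many members. It held the lowest level of Hif1a, Hk1, Pgk1, Ldha and Pdk1 in that group, Ldha being at 36.0 CPM against 68.8, 72.8 and 99.7 CPM. The same rat held the highest Slc2a1, 528 CPM. Its summed neuron markers (12 genes) were also the lowest of the series, at 4546 CPM against 8219 to 8496 CPM in the other 3, and its summed endothelial markers (9 genes, none at 0) were the highest, at 961 CPM against 576 to 629 CPM. The part of cell composition in these levels was not tested. Without this rat, Hif1a passed at day 1 (0.45, adjusted p = 0.047), Slc16a3 passed (1.42, adjusted p = 0.0466), and Slc2a1 kept its call at 0.88 (adjusted p = 0.0387), so that 3 members were called.

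To place the day 1 levels, TBI day 1 and sham day 1 were each compared with sham day 14, the baseline the study used for its trajectories. Both comparisons share those 4 sham rats, so their values are given side by side and are not independent. In TBI day 1, Hif1a, Slc2a1, Hk2, Pfkp, Pfkfb3, Ldha, Pdk1 and Slc16a3 were higher than in sham day 14, 8 of 10 members against 25.0% of all genes, and 0 were lower, against 21.0%. In sham day 1, Hk1, Hk2, Pfkp, Ldha and Pdk1 were higher than in sham day 14, 5 of 10 against 11.3%, and 0 were lower, against 7.88%. Hk2, Pfkp, Ldha and Pdk1 were called in both. Of 21 tested other glycolytic enzymes, 3 were higher and 5 lower in TBI day 1 than in sham day 14 (median −0.32 on the log2 scale). Between the sham groups 1 of these enzymes was higher and 0 lower (median −0.08). Of 13 tested genes for pyruvate entry into mitochondria, a list that also holds pyruvate dehydrogenase and its inhibitors, 3 were higher and 1 lower in TBI day 1. In sham day 1, 5 of them were higher and 0 lower. Cell type markers moved in the same comparisons. In TBI day 1 against sham day 14, all 9 tested oligodendrocyte markers were called lower (median −1.12 on the log2 scale), all 6 tested red blood cell markers higher (median 2.08) and 9 of 10 monocyte and neutrophil markers higher. Between the sham groups 2 of the 6 red blood cell markers were called higher (median 1.05, all 6 above 0) and no oligodendrocyte marker was called by edgeR (median −0.24). There 10 of 11 tested choroid plexus markers were called higher (median 6.17). Their sum was 10770 CPM in sham day 1 replicate 1 and 210 CPM in replicate 2. Of 9 astrocyte markers 2 were called higher and 0 lower (median 0.45), and of 12 neuron markers 2 higher and 1 lower (median 0.24). Fits without the libraries with choroid plexus genes are given below. The part of the other cell types in the members' levels was not tested.

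Ldha and Hk2 had the largest called differences between the sham groups. Ldha stood at 61.4 and 78.4 CPM in sham day 1, at 36.0, 68.8, 72.8 and 99.7 CPM in TBI day 1, and at 37.6, 36.8, 38.9 and 32.2 CPM in sham day 14. The sham day 1 rats and 3 of the 4 TBI day 1 rats lay above every sham day 14 rat. The difference from sham day 14 was 0.94 ± 0.27 for sham day 1 (adjusted p = 0.0251) and 0.93 ± 0.22 for TBI day 1 (SE, log2 scale; adjusted p = 0.0037, both by edgeR). Hk2 was at 31.7 and 33.2 CPM in sham day 1, at 28.5, 39.4, 27.9 and 49.9 CPM in TBI day 1, and at 16.6, 16.0, 17.8 and 16.5 CPM in sham day 14. Neither day 1 group overlapped sham day 14. The differences were 0.95 ± 0.24 (adjusted p = 0.0145) and 1.12 ± 0.20 (adjusted p = 0.000432).

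Pfkp was at 604 and 716 CPM in sham day 1, at 499, 600.0, 482 and 618 CPM in TBI day 1, and at 403, 461, 429 and 423 CPM in sham day 14. Its 2 day 1 groups were both clear of sham day 14, the sham group by more (0.62 ± 0.13, adjusted p = 0.00793) than the TBI group (0.36 ± 0.11, adjusted p = 0.017). Pdk1 differed by 0.53 ± 0.17 in sham day 1 (adjusted p = 0.0426) and by 0.36 ± 0.14 in TBI day 1 (adjusted p = 0.0483), from levels of 34.2 and 38.6 CPM and 26.1 to 39.3 CPM against 21.9 to 28.8 CPM. Both Pdk1 calls were lost under many of the alternatives. Hk1, at 849 and 927 CPM in sham day 1, 652 to 883 CPM in TBI day 1 and 602 to 726 CPM in sham day 14, was called in the sham comparison (0.42 ± 0.14, adjusted p = 0.0457) and not in the TBI one (0.27 ± 0.12, adjusted p = 0.0717). Hif1a was the reverse: at 76.6, 76.5, 84.2 and 72.5 CPM in sham day 14, it lay below every day 1 rat of either kind, with differences of 0.52 ± 0.18 for sham (adjusted p = 0.0544) and 0.84 ± 0.15 for TBI (adjusted p = 0.000356).

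The calls between the 2 sham groups hung on sham day 1 replicate 2. Without that rat 0 of the 10 members were called by edgeR, with Pfkp at 0.49 (adjusted p = 0.082), Hk2 at 0.92 (adjusted p = 0.082) and Ldha at 0.76 (adjusted p = 0.184), all still above 0. Over all genes that fit called 673 higher and 270 lower of 13108 tested, in place of 1450 and 1014 of 12875. That fit holds 1 sham day 1 rat, which is assumed to vary like the other groups. Leaving out the 3 libraries with choroid plexus genes also leaves 1 sham day 1 rat, replicate 2. In that fit Slc16a3 was called lower in sham day 1, at −1.69. In both sham comparisons 6 members had groups that did not overlap, all with day 1 higher, against 21.3% of all genes for sham day 1 and 22.2% for TBI day 1. None had day 1 lower, against 20.1% and 17.8%.

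Slc2a1, Pfkfb3 and Slc16a3 were not called in sham day 1. Against sham day 14 they differed there by −0.22 ± 0.30, 0.29 ± 0.30 and −0.40 ± 0.44 (SE, log2 scale; adjusted p between 0.523 and 0.653), with intervals that reach 0.37, 0.88 and 0.46. In TBI day 1 the same 3 were higher than sham day 14 by 0.90 ± 0.25 (adjusted p = 0.00818), 1.15 ± 0.25 (adjusted p = 0.0018) and 0.93 ± 0.35 (adjusted p = 0.0387), each with groups that did not overlap. The Slc16a3 call was kept in 9 of 14 fits that each left out 1 rat. It was lost without sham day 14 replicate 1, 2 or 3 or TBI day 1 replicate 2 or 3, with a difference of 0.78 to 1.20 over the 14 fits and an adjusted p of up to 0.11. The sham day 14 levels were 193, 199, 178 and 216 CPM for Slc2a1, 24.1, 31.3, 45.3 and 25.2 CPM for Pfkfb3, and 2.49, 2.34, 2.65 and 4.52 CPM for Slc16a3. Pgk1 was at 275, 312, 307 and 269 CPM in sham day 14, 288 and 284 CPM in sham day 1 and 213 to 347 CPM in TBI day 1, and differed by −0.02 ± 0.17 and −0.05 ± 0.14.

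**Figure D2:**
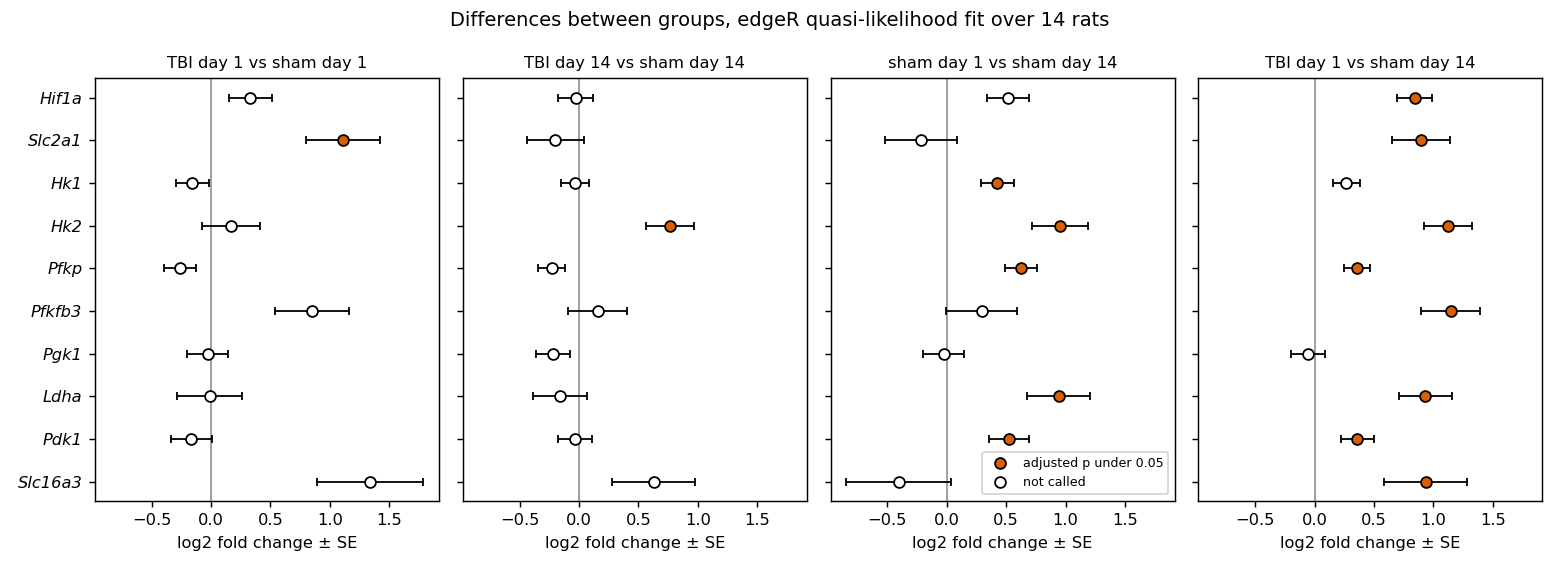
Log2 fold change ± SE of the 10 genes (x axis) in 4 comparisons by edgeR over 14 rats, with filled points for an adjusted p under 0.05. Slc2a1 is filled in TBI day 1 against sham day 1 (1.11) and Hk2 in TBI day 14 against sham day 14 (0.76), while 5 and 8 genes are filled in the panels of sham day 1 and TBI day 1 against sham day 14.

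At day 14 the question was which members still differed between TBI and sham. Hk2 was higher in TBI, and the other 9 members were not called. Hk2, the hexokinase that binds mitochondria and that many cells induce when they switch to glycolysis, was at 27.3, 21.9, 25.1 and 39.4 CPM in TBI and at 16.6, 16.0, 17.8 and 16.5 CPM in sham. Every TBI rat lay above every sham rat, and the TBI rats spread far wider (SD 7.65 CPM against 0.772 CPM). The difference was 0.76 ± 0.20 (SE, log2 scale), a 1.70-fold higher level (edgeR, adjusted p = 0.0423). Hk2 was 1 of 10 members called higher, against 4.07% of all genes, and 0 were called lower, against 0.365%. The call was kept in 7 of 14 fits that each left out 1 rat, and its difference then ran from 0.56 without TBI day 14 replicate 4 (adjusted p = 0.179) to 0.87. Without 1 of the 4 sham day 14 rats the adjusted p was 0.0859 to 0.13, without TBI day 14 replicate 1 it was 0.0842, and without TBI day 1 replicate 2 it was 0.0556. limma-voom did not call it either (0.73, adjusted p = 0.0868), whereas without the 3 libraries with choroid plexus genes it was 1.02 (adjusted p = 0.0209).

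Microglia markers moved with Hk2 at day 14. Their sum over 9 genes, none of them at 0, was 1176, 987, 904 and 1546 CPM in TBI and 408 to 550 CPM in sham, and 8 of the 9 were called higher. Csf1r, among the most abundant of them, was higher by 1.60 on the log2 scale. The rat with the highest sum, replicate 4, was also the rat with the highest Hk2. At day 1, when Hk2 did not pass between TBI and sham, the sum was 569 to 672 CPM in TBI and 377 and 581 CPM in sham. Hk2 itself was at 27.9 to 49.9 CPM in TBI day 1. It was at 33.2 CPM in the sham day 1 rat with a sum of 377 CPM and at 31.7 CPM in the other. The part of microglia in the Hk2 level was not tested.

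Pfkp was the second member whose groups were apart at day 14, with TBI lower: 374, 370.3, 362 and 358 CPM against 403, 461, 429 and 423 CPM in sham. The difference of −0.23 ± 0.11 (SE, log2 scale) had an adjusted p of 0.406 by edgeR. One member was apart with TBI higher, against 9.13% of all genes, and 1 with TBI lower, against 5.86%. Slc2a1 was at 158, 189.6, 139.5 and 197 CPM in TBI day 14, with 2 rats below the range of sham and 2 inside it, and its difference was −0.20 ± 0.24. Slc16a3 was at 4.05, 5.10, 5.71 and 3.75 CPM (0.63 ± 0.35, adjusted p = 0.513), with 2 of the 4 TBI rats inside the range of sham and 2 above it. Pfkfb3, at 39.6, 24.7, 38.6 and 37.6 CPM, differed by 0.16 ± 0.25. Hif1a, Hk1 and Pdk1 differed by −0.03 each, with SE of 0.15, 0.12 and 0.14, and Ldha and Pgk1 by −0.16 ± 0.23 and −0.22 ± 0.14. The median of the members was −0.03, equal to the median of all genes tested.

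Whether the effect of TBI differed between the days was tested as the difference of the 2 differences. No member passed by edgeR, against 2.24% of all genes called higher and 1.44% called lower at day 1. Slc2a1 came closest, at 1.31 ± 0.39 (SE, log2 scale; unadjusted p = 0.00475, adjusted p = 0.0793), and it alone among the 10 had an unadjusted p under 0.05. DESeq2 called it (1.31, adjusted p = 0.0199) and limma-voom called 0 members. It also passed without sham day 1 replicate 1 (1.87, adjusted p = 0.0274) and without TBI day 1 replicate 4 (1.48, adjusted p = 0.0317). For Hk2 the difference was −0.60 ± 0.31 (adjusted p = 0.314), so the Hk2 call at day 14 and its absence at day 1 were not shown to differ.

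**Figure D3:**
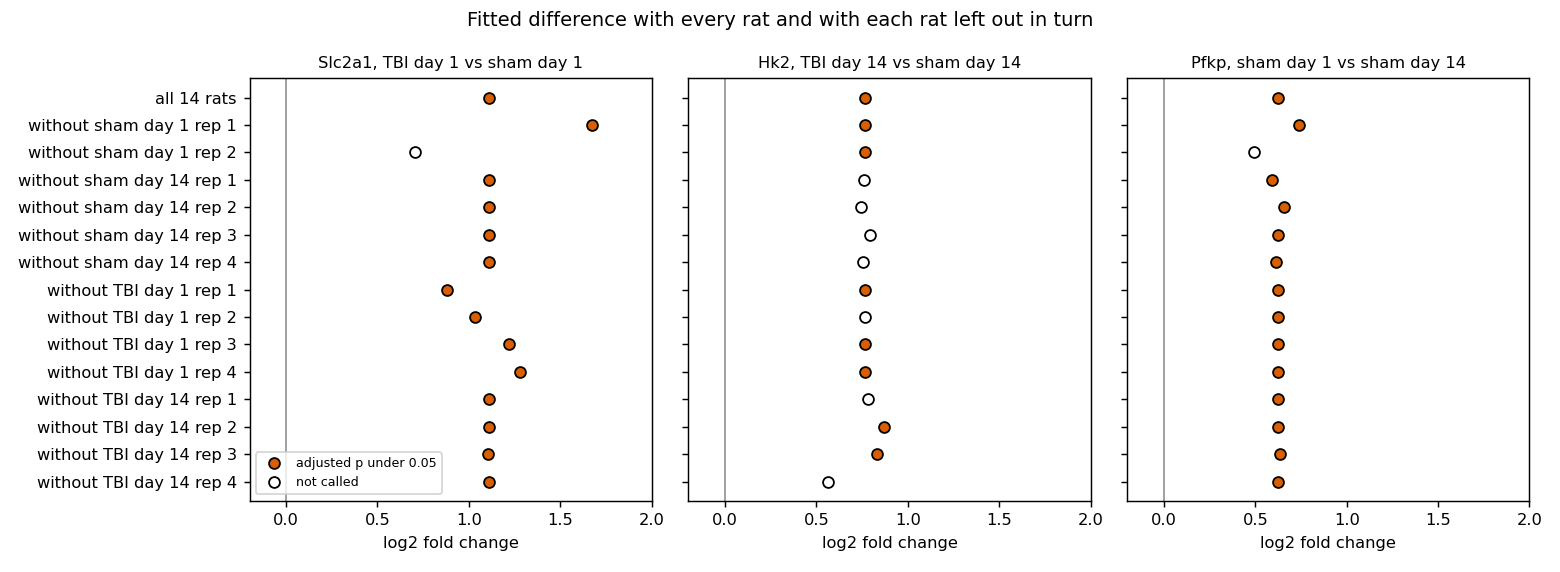
Log2 fold change (x axis) with all 14 rats and with each rat left out in turn (y axis), for Slc2a1 and Hk2 in TBI against sham and for Pfkp between the 2 sham groups; filled points have an adjusted p under 0.05 by edgeR. Slc2a1 falls to 0.70 and Pfkp to 0.49 without sham day 1 replicate 2, and Hk2 to 0.56 without TBI day 14 replicate 4.

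Correlations over the 14 rats are given as a description, since all points share groups and libraries. Pearson's r of log2 CPM was highest between Ldha and Pdk1 (0.94), Hk1 and Ldha (0.94) and Hif1a and Ldha (0.92), and lowest between Pfkp and Slc16a3 (−0.29). Slc2a1 went with none of that group closely: its r was 0.02 with Hk1, 0.11 with Ldha and 0.39 with Hif1a, beside 0.59 with Slc16a3 and 0.53 with Pfkfb3. Pfkfb3 itself had a higher r with Hif1a (0.84), Hk2 (0.65) and Ldha (0.61) than with Slc2a1, and 0.31 with Slc16a3. The 3 tested genes whose levels were most like those of Slc2a1 were Olfml2a (0.97), Plcd1 (0.95) and Gpr4 (0.94, a proton-sensing receptor). Endothelial markers, like Slc2a1, were higher in sum in TBI than in sham at day 1. Their sum was 462 and 278 CPM in sham day 1, 327 to 467 CPM in sham day 14 and 273 to 383 CPM in TBI day 14. In TBI day 1 it was 961, 576, 629 and 593 CPM, in rats with Slc2a1 at 528, 423, 279 and 230.5 CPM. All 9 endothelial markers lay above 0 in TBI against sham at day 1, with a median of 0.50 on the log2 scale. Of these, 2, Pecam1 and Vwf, were called higher (1.14 and 1.88). Cldn5, the second most abundant after Vwf, had the lowest value of the 9, 0.18 ± 0.31 (edgeR, adjusted p = 0.717). Summed astrocyte markers (9 genes) were 9336 and 5953 CPM in sham day 1 and 12889 to 18963 CPM in TBI day 1. They were 5034 to 6273 CPM in sham day 14 and 8818 to 12961 CPM in TBI day 14. Of the 9 astrocyte markers 4 lay above 0 in TBI against sham at day 1 (median −0.31). By edgeR 2 of them were called higher and 1 lower. The part of endothelial cells and of astrocytes in the Slc2a1 level was not tested.

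The remaining genes of the pathway were read in 7 lists, and each count at day 1 stands beside 11.2% of all genes called higher and 7.93% called lower. Markers of neurons and oligodendrocytes lay lower in TBI at the same time: all 12 neuron markers were below 0 (median −0.73, 5 called lower), as were all 9 oligodendrocyte markers (median −0.78, 4 called lower). Their part in the lists was not tested. Among 21 tested other glycolytic enzymes at day 1, 1 was higher and 2 were lower in TBI, with a median of −0.17 on the log2 scale beside −0.02 over all genes. Hk3, the hexokinase of myeloid cells, was at 0.108 and 0.277 CPM in sham and at 9.03, 12.6, 14.7 and 8.59 CPM in TBI, a difference of 5.79 ± 0.60 (adjusted p = 1.96e-05). The summed monocyte and neutrophil markers (11 genes, with Elane at 0 in sham) were 15.7 and 6.22 CPM in the same sham rats and 404 to 687 CPM in the TBI rats, and 8 of 10 tested were called higher. Their part in Hk3 was not tested. Pfkm, the muscle-type phosphofructokinase, was lower by 0.61 in TBI, at 418 to 499 CPM against 701 and 688 CPM. Ldhb, the lactate dehydrogenase subunit that favours lactate use, differed by −0.48 (edgeR, adjusted p = 0.0439), a call lost in most fits. Among these were the fits without the 3 libraries with choroid plexus genes (−0.24) and without sham day 1 replicate 1 (−0.23). Both hold 1 sham day 1 rat. Gapdh, with 81 numbered pseudogenes in RefSeq, differed by 0.21 ± 0.25.

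The subunits and regulators of HIF gave no call by edgeR among 13 tested at day 1, with 2 higher and 1 lower at an unadjusted p under 0.05. limma-voom had 1 higher and 1 lower, and DESeq2 2 and 1. Their differences ran from −0.61 to 2.11 on the log2 scale (median 0.04), with 7 of the 13 above 0. Against sham day 14, 5 of the 13 were called higher in TBI day 1 and 0 lower, beside 25.0% and 21.0% of all genes. Egln3, a hydroxylase that marks HIF for degradation and is itself a target, differed by −0.58 ± 0.20 (adjusted p = 0.0523). Of 25 tested HIF targets outside glycolysis, 3 were higher and 3 lower. Hmox1, which degrades heme, was at 9.11 and 5.99 CPM in sham and 67.9 to 162 CPM in TBI, higher by 3.74 ± 0.35 (adjusted p = 8.93e-06), and Adm, a vasodilator peptide, by 1.86 ± 0.58 (adjusted p = 0.0375), the last with 3.18 and 0.738 CPM in sham and 3.48 to 12.7 CPM in TBI. Adm was at 1.15 without sham day 1 replicate 2 (adjusted p = 0.322) and at 3.24 without replicate 1, and its call was also lost without sham day 14 replicate 2 or TBI day 1 replicate 1 or 2. Car12, a carbonic anhydrase, Ak4, a mitochondrial adenylate kinase, and Mxi1, an antagonist of Myc, were lower by 1.25, 1.06 and 0.41. Without the 3 libraries with choroid plexus genes, a fit that holds 1 sham day 1 rat, Car12 was at −1.15 and Mxi1 at −0.23, neither called. Mxi1 was at −0.04 with all 6 sham rats as baseline (edgeR, adjusted p = 0.864), a baseline that mixes both days. Without single rats the Car12 and Mxi1 calls were lost with sham day 1 replicate 1 left out (−1.14 and −0.22), Mxi1 also with TBI day 1 replicate 2 (−0.40), and Ak4 with sham day 1 replicate 2. Vegfa, among the best known targets, differed by −0.35 ± 0.19 (adjusted p = 0.216). Hmox1 is a target of other stress and inflammatory signals as well.

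Among 12 tested carriers of glucose and monocarboxylates other than the members, 1 was higher and 3 lower at day 1. Slc16a1, which encodes the lactate carrier MCT1, was higher by 0.88 ± 0.26 (edgeR, adjusted p = 0.0315). It was not called without the 3 libraries with choroid plexus genes (0.64), nor without either sham day 1 rat (0.66 and 1.13). Each of these fits holds 1 sham day 1 rat. Slc2a13, the proton-coupled inositol carrier, was lower by 1.60 ± 0.33 (adjusted p = 0.00384), at 31.7 to 90.1 CPM in TBI against 126 and 288 CPM. It was at −0.88 without sham day 1 replicate 2 and no longer called (adjusted p = 0.167), and at −2.08 without replicate 1. Slc2a12 and Slc16a8 were called lower, yet their groups overlapped: Slc2a12 was at 44.6 CPM in sham day 1 replicate 1 and 6.69 CPM in replicate 2, against 4.51 to 14.0 CPM in TBI. Without the 3 libraries, a fit that holds 1 sham day 1 rat, Slc2a12 differed by 0.16 and Slc16a8 by −0.37, neither called. The neuronal glucose transporter Slc2a3 had at most 1 count in any library of this table and was not tested.

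Other routes of glucose and pyruvate were read next. Of 13 tested genes for pyruvate entry into mitochondria 0 were called at day 1 by edgeR, limma-voom or DESeq2, with 3 lower at an unadjusted p under 0.05. All 13 had a log2 fold change below 0 (median −0.38, range −0.50 to −0.08). The list pools carriers and enzyme subunits with kinases that inhibit pyruvate dehydrogenase and phosphatases that activate it. Its shared direction therefore cannot be read as less pyruvate entry. Of 7 tested genes of the pentose phosphate pathway, which makes NADPH, 2 were called higher, among them Taldo1 (0.64 ± 0.13, adjusted p = 0.00378). All 7 lay above 0, with a median of 0.45. The Taldo1 call was lost without sham day 1 replicate 2 (0.48, adjusted p = 0.0795). Among 13 tested genes of glycogen metabolism, Pygl, the liver-type phosphorylase, was higher by 1.11, and Phkb and Phka1, subunits of phosphorylase kinase, and Pygb, the brain-type phosphorylase, were lower by 0.69, 0.58 and 0.62. The Pygl and Phka1 calls were lost without sham day 1 replicate 2 (0.84, adjusted p = 0.251, and −0.55, adjusted p = 0.142). When the 6 day 1 libraries were fitted alone, the genes named here other than Hk3 and Hmox1 were not called, Phkb, for example, at −0.66 (adjusted p = 0.0806).

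**Figure D4:**
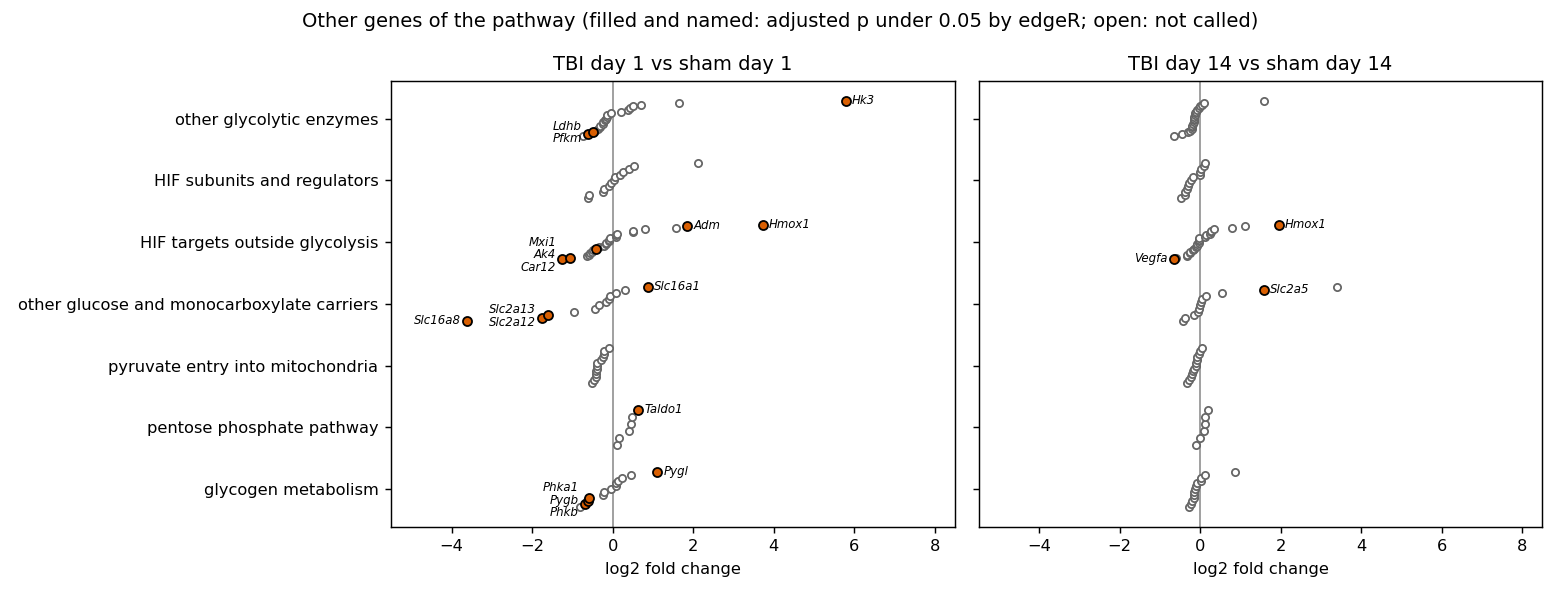
Log2 fold change (x axis) of the tested genes reported here in 7 lists of related genes (y axis; 1 point a gene, spread vertically for reading) for TBI against sham at each day, with filled and named points for an adjusted p under 0.05 by edgeR. At day 1 the range runs from Slc16a8 (−3.62) to Hk3 (5.79), and at day 14 Hmox1 (1.95), Slc2a5 (1.59) and Vegfa (−0.65) are filled.

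At day 14 the lists held 3 calls, where 4.07% of all genes were called higher and 0.365% lower. Hmox1 remained higher in TBI, at 30.5, 23.4, 23.0 and 28.7 CPM against 6.36 to 7.33 CPM in sham (1.95 ± 0.25, adjusted p = 0.000187). Slc2a5, the fructose transporter known as a microglia gene in brain, was at 28.5, 26.7, 21.9 and 40.8 CPM against 8.44 to 12.1 CPM (1.59 ± 0.24, adjusted p = 0.000653). At day 1 it differed by 0.08 ± 0.29. Like Hk2, it was highest in TBI day 14 replicate 4, the rat with the highest sum of microglia markers. Vegfa was lower in TBI at day 14, at 153, 198, 189 and 156 CPM against 303, 305, 207 and 279.7 CPM (−0.65 ± 0.16, adjusted p = 0.0267). The Vegfa call was lost without the 3 libraries with choroid plexus genes (−0.80, adjusted p = 0.0534) and when any 1 of several rats was left out. In the other 5 lists edgeR and limma-voom called 0 genes at day 14. At an unadjusted p under 0.05, edgeR had 1 higher among the other glycolytic enzymes, 2 lower among the HIF regulators, 1 lower for pyruvate entry, 0 for the pentose phosphate pathway, and 1 higher and 1 lower for glycogen. DESeq2 called 1 of the other glycolytic enzymes higher, and 1 higher and 1 lower for glycogen.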

How the data were processed

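The table of read counts was made by the authors, who used STAR 2.4.2a to align single-end reads of stranded mRNA libraries to rn5 and featureCounts 1.5.0 to count them per UCSC gene (submitters' processing notes and the paper's methods). The handling of strand and of reads with several matches in counting is not given in the sources used here. The deposited counts were used without normalization or rounding. All 14 labelled RNA-seq samples were used. The 4 H3K4me3 peak lists were not used, since no annotation of rn5 was at hand to tie peaks to genes.

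Counts were analysed with edgeR 4.0.16 in R 4.3.3: the default filter by group, TMM factors, and the quasi-likelihood model, in which each group had its own mean over the 14 samples. SE was taken as the log2 fold change over the square root of F, and intervals are 95% normal intervals. These are narrower than the quasi-likelihood test implies, so their true coverage is below 95%. For Pfkp at day 14, for example, the interval of −0.45 to −0.01 leaves out 0 while the unadjusted p was 0.0584 by edgeR. Two-sided p-values were corrected after Benjamini and Hochberg over 12875 genes, with a threshold of 0.05. The table lists 2 names more than 1 time. CPM were computed with the TMM factors, and log2 CPM with a prior count of 2. Total counts were 19189470 and 23743703 in the sham rats of day 1. They ran from 17183319 to 23159858 in TBI at day 1, from 15506103 to 19175585 in sham at day 14, and from 15065540 to 19781459 in TBI at day 14. Replicates of a group differed beyond counting noise (chi-squared per degree of freedom 12.8 to 165). Figures were drawn with matplotlib 3.10.9 in Python 3.11.15.

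The members and lists were chosen with earlier results of these data known. All members are named. Of each pathway list, the up to 3 largest increases and 3 largest decreases among calls of a day are named, of each cell type list up to 2 of the most abundant genes where it bears on a member, and for the member called in TBI against sham at day 1 the 3 genes with the highest Pearson's r. Egln3, Vegfa at day 1, Gapdh, Slc2a3 and further markers were named after their values were seen. Egln3 and Pfkfb4 stand in 2 lists. Single-gene results of a few list genes are not reported here, and these genes are left out of the plot of the lists but kept in the counts.

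Alternatives were limma-voom (limma 3.58.1), DESeq2 1.42.0, median-of-ratios factors, a fit of the compared groups alone, no filter, a minimum of 10 counts per sample, a replicate block, a threshold of 0.01, a choroid plexus score as covariate, all 6 sham rats as baseline, and each rat left out. Leaving out the 3 libraries with choroid plexus genes was added after seeing the data. The tests were also run on simulated counts in which each gene had the same spread in every group. The real groups differed in spread, so that run does not bear on the single calls given here.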

Additional observations from a re-analysis of the deposited data

Results flagged for a closer look

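A pair of results was flagged because 1 rat lay far from the other 3 of its group, both in Pfkfb3 and out of 30 groups of 4 rats examined (10 genes in 3 groups). Chance flags about 1 in 20 groups. In TBI day 1, replicate 2 stood at a log2 CPM of 6.70, and the other 3 rats at 5.86 to 5.87. Without that rat the difference from sham day 1 was 0.59 on the log2 scale in place of 0.85. In TBI day 14, replicate 2 stood at 4.63, and the other 3 at 5.24 to 5.31. This rat is 1 of the 3 with choroid plexus genes. The 2 flagged rats share a replicate number but belong to different groups.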

How the results depend on the processing

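The members called higher in TBI day 1 against sham day 1 numbered 1 in the main analysis. They numbered 2 with limma-voom, median-of-ratios factors, at least 10 counts in every sample, the choroid plexus covariate or without the 3 choroid plexus libraries. They numbered 3 with DESeq2 and 0 with the groups compared alone or at 0.01. With all 6 sham rats as baseline they numbered 5. That baseline mixes sham rats of both days, so its differences hold day as well as injury. At day 14 the 1 member became 0 with limma-voom, at 0.01 and with all 6 sham rats. For the difference between days 0 became 1 with DESeq2, at 0.01 the 8 members of TBI day 1 against sham day 14 became 5 and the 5 between the sham groups became 1, and without the 3 libraries 1 member was lower between the sham groups. Over the fits that left out 1 rat the counts were 0 to 3, 0 to 1, 0 to 1, 5 to 9 and 0 to 6 in this order, and 0 to 1 for members lower between the sham groups. The cause was not tested.

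Directions turned for differences near 0 and for a few others, on the log2 scale. At day 1, with all 6 sham rats of both days, Hk1 was 0.1152, Pfkp 0.1242, Ldha 0.5478 and Pdk1 0.1665. At least 10 counts gave Pgk1 0.0047 and Ldha 0.0176, the covariate gave Pgk1 0.0235, the groups alone gave Ldha 0.0107, and leaving out the 3 libraries gave Slc2a12 0.1611. At day 14 Hif1a was 0.0077 with the groups alone, 0.0671 with the covariate and 0.0746 without the 3 libraries, and the groups alone gave Hk1 0.0017 and Pdk1 0.0021. For the difference between days Ldha was -0.0534 without the 3 libraries. With 1 rat left out, the ranges at day 1 were -0.0217 to 0.2761 for Hk2, -0.149 to 0.081 for Pgk1, -0.2381 to 0.2025 for Ldha and -2.557 to 0.179 for Slc2a12. At day 14 they were -0.0702 to 0.0356 for Hif1a, -0.0765 to 0.0133 for Hk1 and -0.0961 to 0.0348 for Pdk1. For the difference they were -0.1542 to 0.0918 for Pfkp and -0.0803 to 0.36 for Ldha, and in TBI day 1 against sham day 14 -0.1731 to 0.0571 for Pgk1. Between the sham groups they were -0.7822 to 0.1905 for Slc2a1, -0.0385 to 0.5626 for Pfkfb3, -0.0605 to 0.012 for Pgk1 and -1.6975 to 0.2841 for Slc16a3.

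Deviations from the group means of same-numbered rats had r from -0.35 to 0.24 (18 pairs, median 0.03). For 54 pairs with other numbers r ran from -0.43 to 0.35 (median -0.03). Deviations within a group sum to 0, so the pairs are not independent and cannot exclude that the numbers pair the rats. With the replicate block, Slc2a1 at day 1 was 1.27 (adjusted p = 0.0163 by edgeR), Hk2 at day 14 was 0.72 (adjusted p = 0.0359), 6 members were higher in TBI day 1 than in sham day 14, Ldha was -0.005 for the difference between days and Pgk1 0.0566 between the sham groups.

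Over all genes, the 1437 higher and 1021 lower at day 1 became 557 and 94 with the groups compared alone, 788 and 299 at 0.01, 2292 and 2032 with all 6 sham rats, and 555 and 367 without sham day 1 replicate 2. At day 14 the 524 higher and 47 lower became 903 and 205 with the groups alone and 348 and 18 at 0.01, and the lower became 119 with DESeq2 and 18 without the 3 libraries. With 1 rat left out the lower at day 14 ran from 21 to 84. For the difference between days the 288 higher and 186 lower became 178 and 100 with limma-voom, 600 and 453 with DESeq2, 89 and 29 at 0.01, 119 and 62 with the covariate and 189 and 87 without the 3 libraries, and at 0.01 the 2698 lower in TBI day 1 against sham day 14 became 1687. Between the sham groups the 1450 higher and 1014 lower became 497 and 255 at 0.01, 673 and 270 without sham day 1 replicate 2, and 808 to 887 and 521 to 605 without sham day 14 replicate 1, 2 or 4, and the lower became 600 without the 3 libraries. With 2 sham rats at day 1, and 20 to 68 counts of Slc16a3 in them, the size of the day 1 differences is loosely set.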
